A study of Mus musculus with 234 samples.

Results

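Metallothioneins and their zinc regulators were followed through single mouse cardiomyocytes (CMs) that carry or lack a transgene for the human BAG3 P209L mutant. The 5 genes, chosen by their names in the gene count matrix, were Mt1, Mt2, Mtf1, Slc30a1 and Slc39a14, out of 55538 features, of which 23664 held a count. They were chosen with earlier results of these data known, in which Mt1 was lower in the transgenic CMs, so all of their levels below are a description of the cells and not a test of the choice.

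Metallothioneins are small, cysteine-rich proteins that bind zinc and copper ions and hold them in an exchangeable store. Free zinc activates the transcription factor MTF1, which binds metal response elements in the promoters of Mt1, Mt2 and Slc30a1. Slc30a1 (ZnT1) exports zinc across the plasma membrane, and Slc39a14 (ZIP14) imports zinc, manganese and iron. In the heart, as in liver, Mt1 and Mt2 also respond to glucocorticoids, inflammation and oxidative stress.

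The samples were 234 hand-picked CMs from 5 mice, each sequenced as 1 library by SMART-seq2, a full-length cDNA protocol without molecular identifiers. Control CMs came from mice M26 and M73, which their titles call wt and whose label gives the strain C57BL/6. In the study as a whole the control animals were siblings of the transgenic mice that were wild type, carried PGK-Cre alone, or carried the floxed transgene without recombination. The CMs labelled homo came from mice M25 and M116 (strain label PGKcre:BAG3P209L_homo) and those labelled het from mouse M72 (PGKcre:BAG3P209L_het). The line goes back to 1 clone of targeted embryonic stem cells. The paper places its transgenic lines on a mixed genetic background of several strains, which the strain labels do not show. Whether the control mice labelled C57BL/6 shared that background cannot be told from the labels. In these animals Cre driven by the ubiquitous PGK promoter removes a stop cassette, so that human BAG3 P209L fused to eGFP is made from the CAG promoter in the Rosa26 locus. In the heart the study saw the fusion protein in CMs alone. Control and homo mice were 2 weeks old, and the age of mouse M72 was not given in the sources used here. CMs were released by Langendorff perfusion and classed as bright or dim by their eGFP fluorescence.

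Mice were the replicates, so the counts of all cells with the same mouse and brightness label were added up into 8 sums of 9 to 59 cells and 4096609 to 40508124 counts. Levels are in CPM, the counts of a gene scaled to 1000000 counts of its sum or cell. The plate names in the labels fall into 2 library sets, 1 with control mouse M26 and homo mouse M25 and 1 with control mouse M73, homo mouse M116 and het mouse M72. Fewer than 1000 genes were detected in 15 cells, and no library was a copy of another.

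The targeted gene was checked in every sum first. Human BAG3 stood at 0.408 and 0.488 CPM in control mice M26 and M73. In the cells labelled homo_bright it stood at 294 (M25) and 233 CPM (M116), and in those labelled homo_dim at 10.7 and 99.6 CPM. In mouse M72 the cells labelled het_bright held 105 CPM and the cells labelled het_dim held 251 CPM. The brightness label of mouse M72 therefore ran opposite to the transgene level, and its cells are named here only by their labels. Endogenous Bag3 lay between 156 and 247 CPM in the 8 sums. The 6 cardiomyocyte markers summed to between 52192 and 67306 CPM in every sum. Within that total, Tnni3, Tnnt2 and Ryr2 were below both control mice in all homo sums. Tnni3, cardiac troponin I, stood at 12597 and 11874 CPM in control, 9479 and 7157 CPM in homo_bright, and 9978 and 7232 CPM in homo_dim. The median log2 fold change of the 6 markers was -0.77 for homo_bright (6 below 0) and -0.74 for homo_dim (5 below 0) against control. edgeR and DESeq2 called 0 of them, and 3 and 1 had an unadjusted p under 0.05 in edgeR. The part of this in the levels of the members was not tested.

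The promoters of Mt1, Mt2 and Slc30a1 are shown because the metal response element, through which MTF1 acts on them, is what links these genes. The windows run from 250 bases before to 50 bases after the annotated start and were taken from a table of RefSeq promoters for GRCm38.p6, in which 4 of the 5 genes were matched. Capitals mark each match to TGCACNC or TGCGCNC, the core of the metal response element, on either strand. Mt1 lies at chr8:94178839-94179138, Mt2 at chr8:94172368-94172667 and Slc30a1 at chr1:191906531-191906830, all on the plus strand.
Mt1: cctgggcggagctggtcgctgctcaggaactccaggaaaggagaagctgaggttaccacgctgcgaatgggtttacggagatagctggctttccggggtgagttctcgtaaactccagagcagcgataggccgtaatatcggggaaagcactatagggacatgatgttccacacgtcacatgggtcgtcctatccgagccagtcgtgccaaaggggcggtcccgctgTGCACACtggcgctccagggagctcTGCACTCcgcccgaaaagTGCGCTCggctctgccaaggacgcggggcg
Mt2: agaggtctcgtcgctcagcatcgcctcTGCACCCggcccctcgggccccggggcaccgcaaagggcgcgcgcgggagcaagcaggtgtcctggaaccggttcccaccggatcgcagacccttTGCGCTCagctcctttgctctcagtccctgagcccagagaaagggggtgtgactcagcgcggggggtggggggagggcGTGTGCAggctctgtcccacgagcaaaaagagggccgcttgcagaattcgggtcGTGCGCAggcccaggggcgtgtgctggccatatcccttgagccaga
Slc30a1: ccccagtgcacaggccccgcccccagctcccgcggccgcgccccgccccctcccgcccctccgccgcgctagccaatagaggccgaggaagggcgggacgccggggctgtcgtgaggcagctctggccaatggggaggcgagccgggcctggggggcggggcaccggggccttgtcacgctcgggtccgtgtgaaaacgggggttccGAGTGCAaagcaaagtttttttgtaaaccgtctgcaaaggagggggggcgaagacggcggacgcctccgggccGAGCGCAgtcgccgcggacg
The Mt1 window held 3 cores, at positions -23 to -17, 3 to 9 and 21 to 27 from the annotated start. Cores outside the windows were not counted, so these numbers may not cover all metal response elements of a gene. The Mt2 window held 4 cores, 2 of them on the minus strand, and the Slc30a1 window held 2, both on the minus strand. The Mtf1 window, at chr4:124802299-124802598, held 0. Of 32851 promoter windows of the same length, 25.7% held at least 1 core, 7.11% at least 2, 1.97% at least 3 and 0.517% at least 4. Mt4, Mt3, Mt2 and Mt1 follow each other on the same strand of chromosome 8.

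Mt1 had by far the most counts of the 5 members, and its level was lower in every transgenic sum than in both control mice. Control mouse M26 had 1138 CPM from 22281 counts, and control mouse M73 had 819 CPM from 3354 counts. Homo mouse M25 had 329 CPM in its bright and 327 CPM in its dim CMs, and homo mouse M116 had 149 CPM in bright and 129 CPM in dim CMs. The mean was 978 ± 226 CPM in control, 239 ± 127 in homo_bright and 228 ± 140 in homo_dim (SD, n = 2 mice each). Mouse M72, the only het animal, had 259 CPM in its het_bright and 209 CPM in its het_dim cells. The control and transgenic sums did not overlap, whereas bright and dim did, since the 2 homo mice differed from each other more than their brightness classes did.

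The lower level was present in the cells one by one and did not come from a few of them. Among the 219 CMs with at least 1000 genes, the median cell had 1190 CPM of Mt1 in control mouse M26 and 794 CPM in control mouse M73. The median transgenic cell had 349 and 352 CPM in the bright and dim cells of mouse M25, 114 and 124 CPM in those of mouse M116, and 235 and 207 CPM in the cells labelled het_bright and het_dim. Every control cell of this depth held Mt1 at 338 CPM or more. Of the homo_bright cells, 9 of 20 in mouse M25 and 55 of 56 in mouse M116 were below that lowest control cell. Of the homo_dim cells, 8 of 18 in mouse M25 and 47 of 48 in mouse M116 were below it, as were 19 of 24 het_bright and 20 of 25 het_dim cells. No homo cell and no het_bright cell exceeded the lower of the control medians, and 1 of 25 het_dim cells did. Mouse M25 thus had about as many cells inside the control range as below it, while the cells of mouse M116 lay almost wholly below it. No Mt1 count was found in 5 transgenic cells past the cut of 1000 genes, 1 of 20 in homo_bright mouse M25 and 4 of 56 in homo_bright mouse M116. These cells held 1117 genes in mouse M25 and 1268, 1319, 1669 and 5392 genes in mouse M116. Control cells past the cut held 3703 genes or more, so most of the cells without Mt1 were poor libraries.

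**Figure D1:**
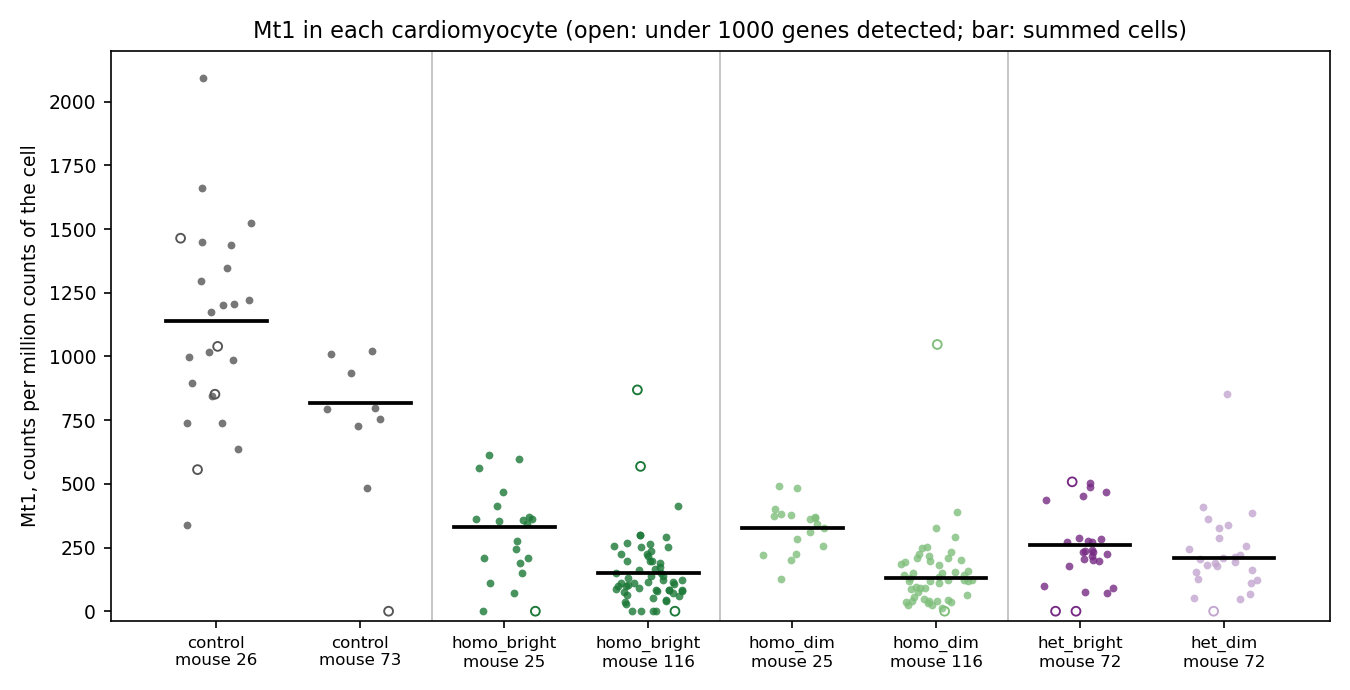
Mt1 in each of the 234 CMs, in CPM of the cell (linear axis), by group and mouse. Points are cells, open points are the 15 cells with under 1000 genes detected, and each bar is the level of the summed cells. The bars of the control mice stand at 1138 and 819 CPM and those of the transgenic sums between 129 and 329 CPM.

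Mt1 was then compared within each library set, where control and transgenic plates share their set. In the set with mice M25 and M26, homo_bright CMs held 0.289 times the control Mt1 level (95% counting interval 0.281 to 0.298) and homo_dim CMs 0.287 times (0.279 to 0.295). In the set with mice M73, M116 and M72 the ratio was 0.183 (0.175 to 0.190) for homo_bright, 0.158 (0.151 to 0.165) for homo_dim, 0.316 (0.302 to 0.331) for het_bright and 0.255 (0.243 to 0.268) for het_dim. Mt1 was therefore 3.16 to 6.35 times lower than in the control mouse of the same set in 6 of 6 sums. These intervals cover counting error only, and each set holds 1 control mouse. The plates of mouse M116 gave 124 and 176 CPM in bright and 113 and 152 CPM in dim cells, while mouse M73 lay on another plate. Mice M25 and M26 shared a plate, as did mice M72 and M73, and no plate held both mouse M116 and a control, so plate and genotype cannot be told apart for mouse M116.

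Across all genes, edgeR's quasi-likelihood test gave a log2 fold change of -2.33 ± 0.46 (SE) for Mt1 in homo_bright against control, with an adjusted p = 0.663 and an unadjusted p = 0.00208. For homo_dim against control the same test gave -2.37 ± 0.51, with an adjusted p = 0.735 and an unadjusted p = 0.00254. Mt1 did not pass the adjusted threshold of 0.05 in either comparison, which share their control mice. That test called 0.0164% of 12203 genes in homo_bright against control, which were the 2 transgene sequences and no member, and 0% of 12195 genes in homo_dim against control. At an unadjusted p under 0.05 it took 6.55% and 6.22% of genes, and 2 of the 5 members, Mt1 and Slc39a14, in both comparisons. A smaller p than that of Mt1 was found for 10 genes in the first comparison and 12 in the second, and 2.99% and 2.698% of genes had a lower log2 fold change.

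The call for Mt1 turned on the method. DESeq2 gave -2.35 with an adjusted p = 0.00193 for homo_bright and -2.39 with an adjusted p = 0.00148 for homo_dim, and called 0.869% and 0.451% of genes. With the library set as a block in edgeR, Mt1 was at -2.44 ± 0.33 with an adjusted p = 0.0104 for homo_bright. For homo_dim the block gave -2.53 ± 0.34 with an adjusted p = 5.00e-05. The block called 0.0819% and 0.0984% of genes, and Mt1 was the 1 member among them in both comparisons, as it was under DESeq2. Without homo mouse M25, Mt1 passed in edgeR as well, at -3.02 with an adjusted p = 0.00387 for homo_bright and at -3.20 with an adjusted p = 0.00139 for homo_dim, where the lone transgenic sum is assumed to vary like the control mice. Without homo mouse M116 it stood at -1.84 with an adjusted p = 0.302 for homo_bright and at -1.83 with an adjusted p = 0.9997 for homo_dim in edgeR. Scaling by library size alone in place of TMM moved the median log2 fold change of all genes from 0.11 to 0.41 in homo_bright against control and from 0.10 to 0.38 in homo_dim against control. Mt1 stood at -2.03 and -2.10 on that scale.

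**Figure D2:**
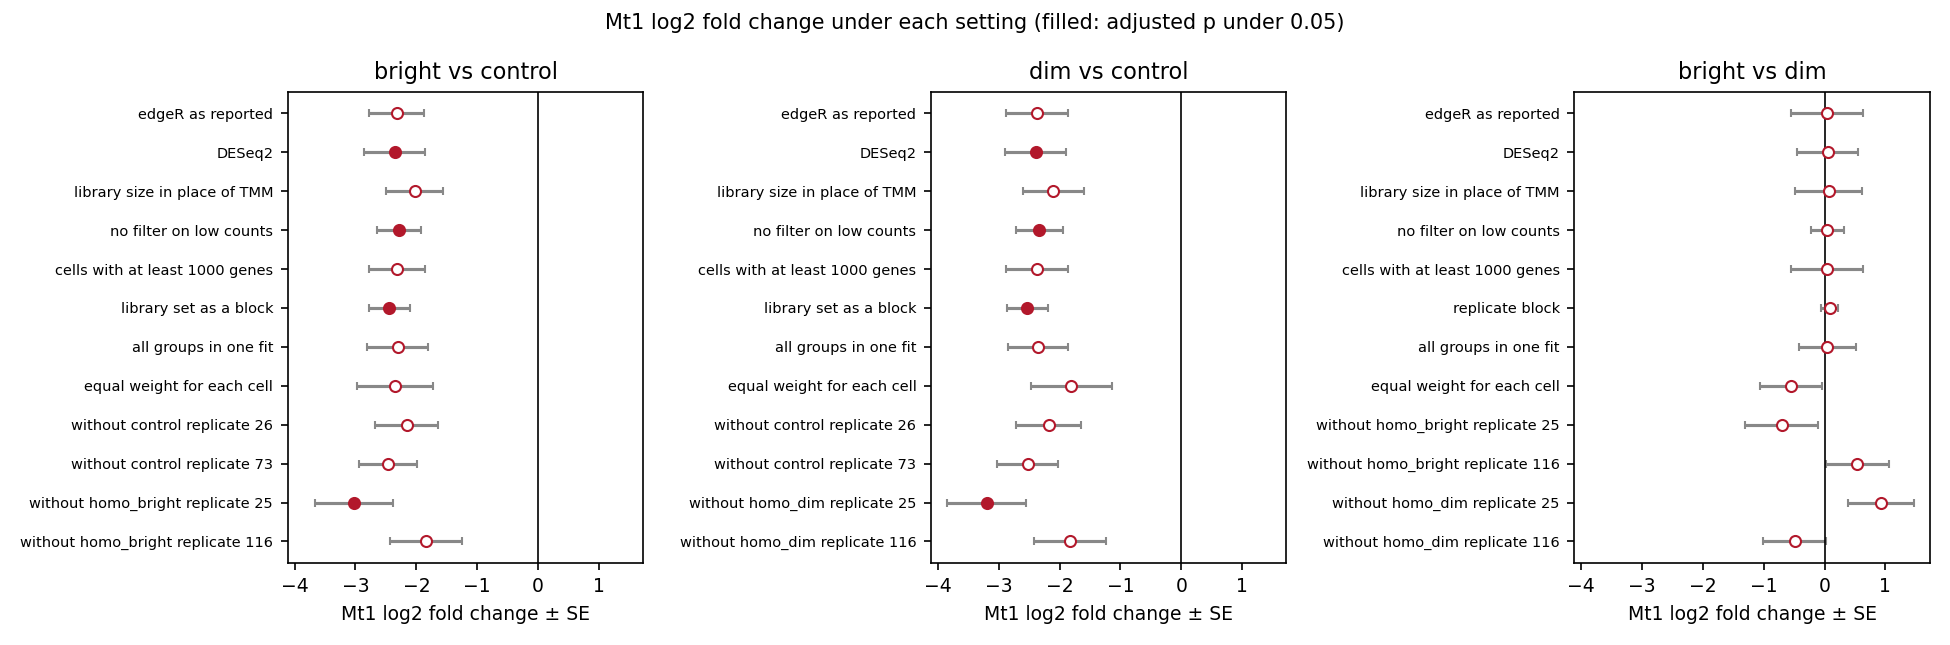
Mt1 log2 fold change (x axis) with its SE under each setting (y axis) in homo_bright against control, homo_dim against control and homo_bright against homo_dim. Filled points have an adjusted p under 0.05; estimates against control lie between -3.20 and -1.81 in every setting, and those of bright against dim lie on both sides of 0.

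Bright and dim CMs of the same mice were compared next, since they differ in the level of the transgene within 1 animal. In mouse M25 the ratio of bright to dim was 1.01 for Mt1 (95% counting interval 0.973 to 1.04), although human BAG3 differed between 294 and 10.7 CPM. In mouse M116 the Mt1 ratio was 1.16 (1.11 to 1.20), and between the het_bright and het_dim cells of mouse M72 it was 1.24 (1.18 to 1.30). Over both homo mice edgeR's log2 fold change for bright against dim was 0.04 ± 0.59, with an adjusted p = 0.999. Its 95% interval under a normal approximation, which is too narrow for so few mice, was -1.11 to 1.20. With the mouse as a block the log2 fold change was 0.08 ± 0.13. The adjusted test called 0% of 13439 genes and 0 members, and 4.12% of genes but 0 members had an unadjusted p under 0.05. DESeq2 called 0.662% of genes and 0 members, and both bright sums lay on 1 side of both dim sums for 30.9% of genes and 0 of the 5 members.

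Within the cells of each transgenic sum, Spearman's rho between Mt1 and the transgene lay between -0.19 and 0.19 over 18 to 56 cells. These values are a description across cells of 1 mouse, which differ in depth and, in mouse M116, lie on 2 plates.

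**Figure D3:**
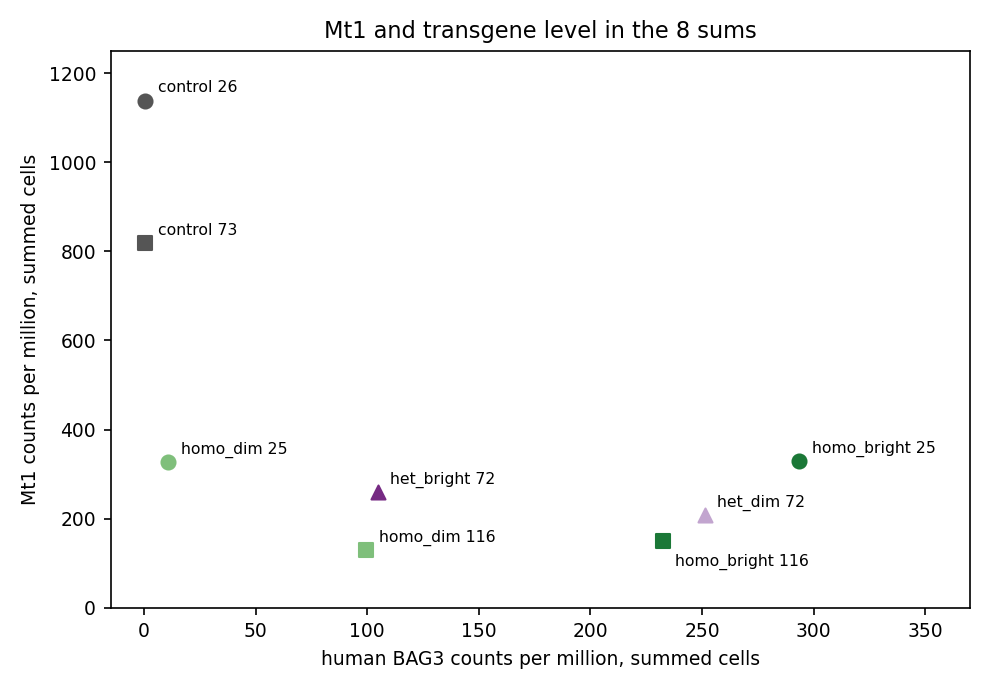
Mt1 (y axis) against human BAG3 (x axis) in the 8 sums, both in CPM on linear axes, with colours for the groups and symbols for the animals. The control sums stand at 1138 and 819 CPM of Mt1 near 0 of the transgene, and the transgenic sums lie between 129 and 329 CPM of Mt1 across transgene levels of 10.7 to 294 CPM.

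Mt2, the other widely made metallothionein and neighbour of Mt1, was detected at a far lower level. It had 6.28 CPM (123 counts) and 12.2 CPM (50 counts) in control mice M26 and M73. In homo_bright CMs it had 2.54 CPM (48 counts) in mouse M25 and 0.395 CPM (16 counts) in mouse M116, and in homo_dim CMs 2.07 CPM (38 counts) and 0.0871 CPM (3 counts). The cells labelled het_bright and het_dim held 1.66 and 1.48 CPM. All 6 transgenic sums were below both control sums, and those of mouse M116 were the lowest. The means were 9.24 ± 4.19, 1.47 ± 1.51 and 1.08 ± 1.40 CPM in control, homo_bright and homo_dim (SD, n = 2 mice each). edgeR's log2 fold change was -2.98 ± 1.48 (adjusted p = 0.857) for homo_bright and -3.38 ± 1.76 (adjusted p = 0.931) for homo_dim against control. With a mouse left out these lay between -4.87 and -2.17 for homo_bright and between -6.93 and -2.44 for homo_dim, lowest without mouse M25 and highest without mouse M116. With each cell weighted equally, as mean log2(CPM + 1) in limma, Mt2 stood at -1.77 and -1.85, on a scale that understates changes of low genes.

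The share of cells with an Mt2 count was also lower in all transgenic sums. It was 79.2% and 77.8% of cells in the control mice, 66.7% in both classes of mouse M25, 10.2% and 4% in the bright and dim cells of mouse M116, and 25.9% and 30.8% in the het_bright and het_dim cells. After each cell was thinned to 200000 counts, the shares were 70% and 75% in control, 38.1% and 3.85% in homo_bright and 33.3% in homo_dim mouse M25. In homo_dim mouse M116 the thinned share was 0 of 48 cells, which allows a share of up to 6.25%. Homo mice M25 and M116 thus differed in Mt2 detection more than their brightness classes did. Against the control of its set, Mt2 stood at 0.404 (bright) and 0.329 (dim) times the control level in mouse M25 and at 0.0324 (bright) in mouse M116, with 0.136 for het_bright and 0.121 for het_dim. For the homo_dim cells of mouse M116 the ratio was 0.00714, from 3 counts.

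Of the 588 exon bases of Mt2, 432 (73.5%) are also covered by Gm45774, an antisense gene with 0 to 7 counts per sum. Where counting ignores strand, STAR assigns reads over such bases to neither gene, and the strand setting was not given in the sources used here. The part of this overlap in the Mt2 level was not tested. Per kilobase of transcript, Mt1 stood at 2072 and 1491 CPM and Mt2 at 12.3 and 23.9 CPM in the control mice. The ratio of Mt1 to Mt2 counts was 181 and 67.1 in control, 130 and 378 in homo_bright, 158 and 1481 in homo_dim, and 156 and 142 in the het cells. Its groups overlapped, and an exact two-sided permutation test gave p = 0.6667 for each of the 3 comparisons, where 2 against 2 mice can reach no less than 0.33.

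Mtf1, the zinc sensor and transcription factor, showed no common order among the groups. It stood at 8.02 and 5.13 CPM in the control mice, 11.3 and 6.44 CPM in the homo_bright cells of mice M25 and M116, and 2.50 and 12.7 CPM in their homo_dim cells. The het_bright and het_dim cells held 6.71 and 7.98 CPM. The groups overlapped, and the dim cells of the 2 homo mice were the lowest and the highest of the 8 sums. Mtf1 was found in 20.8% to 47.6% of the cells of a sum. A single cell held 76.2% of its counts in control mouse M73 and 72.04% in the het_bright cells, and without the top cell these sums stood at 1.42 and 1.95 CPM. edgeR's log2 fold change was 0.14 ± 1.05 (adjusted p = 0.994) for homo_bright and -0.10 ± 1.23 (adjusted p = 0.999) for homo_dim against control, and the latter was 0.21 when scaled by library size. The 95% intervals under a normal approximation, which is too narrow for so few mice, were -1.93 to 2.20 and -2.50 to 2.31. Even these leave room for a change of several fold either way.

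Slc39a14, the importer, stood at 31.1 and 35.6 CPM in control mice M26 and M73. It was at 9.99 and 17.2 CPM in the homo_bright cells of mice M25 and M116, at 12.8 and 9.0 CPM in their homo_dim cells, and at 13.6 and 18.2 CPM in the het_bright and het_dim cells. All transgenic sums were below both control sums, at 0.253 to 0.512 times the control mouse of their set. The means were 33.4 ± 3.21, 13.6 ± 5.07 and 10.9 ± 2.68 CPM in control, homo_bright and homo_dim (SD, n = 2 mice each). edgeR gave -1.64 ± 0.63 (adjusted p = 0.730, unadjusted p = 0.0401) for homo_bright and -1.91 ± 0.65 (adjusted p = 0.735, unadjusted p = 0.0223) for homo_dim against control. With each cell weighted equally these were -0.77 and -0.74.

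The Slc39a14 level of control mouse M73 rested on a single cell, which held 76.0% of its counts. Without the top cell of each sum, the control mice stood at 25.4 and 9.73 CPM, and the transgenic sums at 6.30 to 15.3 CPM. Control mouse M73 then lay inside the transgenic range, and only control mouse M26 lay above it. The median cell with at least 1000 genes held 12.5 and 3.42 CPM in the control mice and between 0 and 4.86 CPM in the transgenic sums.

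Slc30a1, the exporter that MTF1 controls, stood at 11.1 and 10.5 CPM in the control mice. It was at 5.50 and 6.59 CPM in the homo_bright cells of mice M25 and M116, at 11.4 and 2.47 CPM in their homo_dim cells, and at 9.24 and 6.87 CPM in the het_bright and het_dim cells. Both homo_bright sums were below both control sums, while the homo_dim sums spanned the highest and the lowest of the 8. edgeR gave -1.16 ± 0.97 (adjusted p = 0.931) for homo_bright and -0.91 ± 1.14 (adjusted p = 0.999) for homo_dim against control. The latter was -2.41 without mouse M25 and -0.19 without mouse M116. With each cell weighted equally Slc30a1 stood at -0.25 for homo_bright and -0.08 for homo_dim against control. Slc30a1 was found in 14% to 50% of the cells of a sum. Without the top cell the control mice stood at 7.37 and 3.76 CPM, and the homo_bright cells at 2.80 and 4.75 CPM, so that these groups then overlapped.

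Counted together, both homo_bright sums were below both control sums for 4 of the 5 members (all but Mtf1), against 8.24% of all genes tested. Both homo_dim sums were below both control sums for 3 of the 5 (Mt1, Mt2 and Slc39a14), against 8.09% of genes. Without the top cell of each sum, Slc39a14 overlapped with control in both comparisons and Slc30a1 in homo_bright, while Mt1 and Mt2 stayed below. The share of all genes under that rule was not computed. Since the members were chosen with such results in view, these counts are given without a test. All 5 members passed the filter on low counts in each comparison. Their median log2 fold change was -1.64 for homo_bright and -1.91 for homo_dim against control, with 0.11 and 0.10 over all genes.

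**Figure D4:**
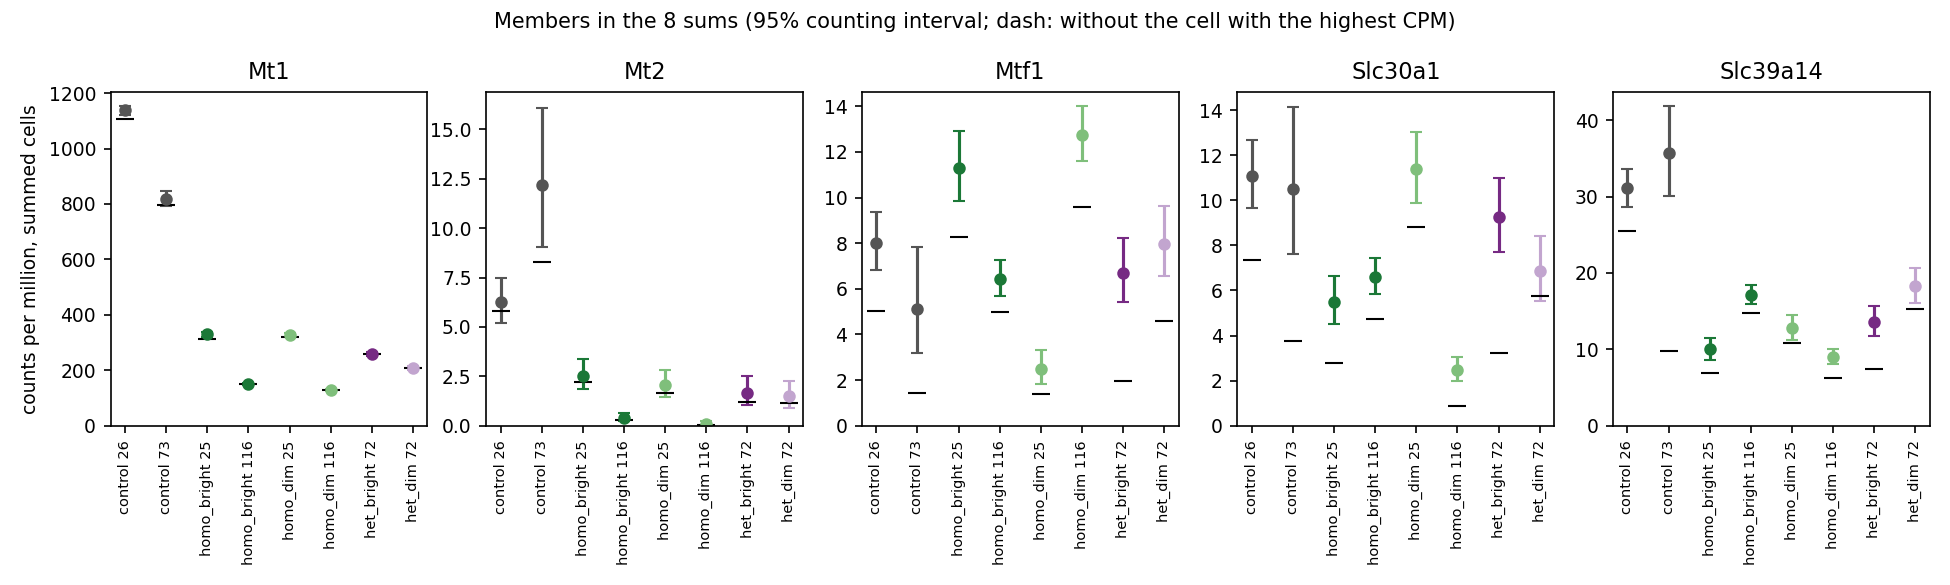
The 5 members in the 8 sums, in CPM (linear axes from 0, 1 scale per gene), with 95% counting intervals. Dashes give the level without the cell with the highest CPM: the dashes of Mt1 stay by their points, whereas that of Slc39a14 in control mouse M73 drops from 35.6 to 9.73 CPM.

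**Figure D5:**
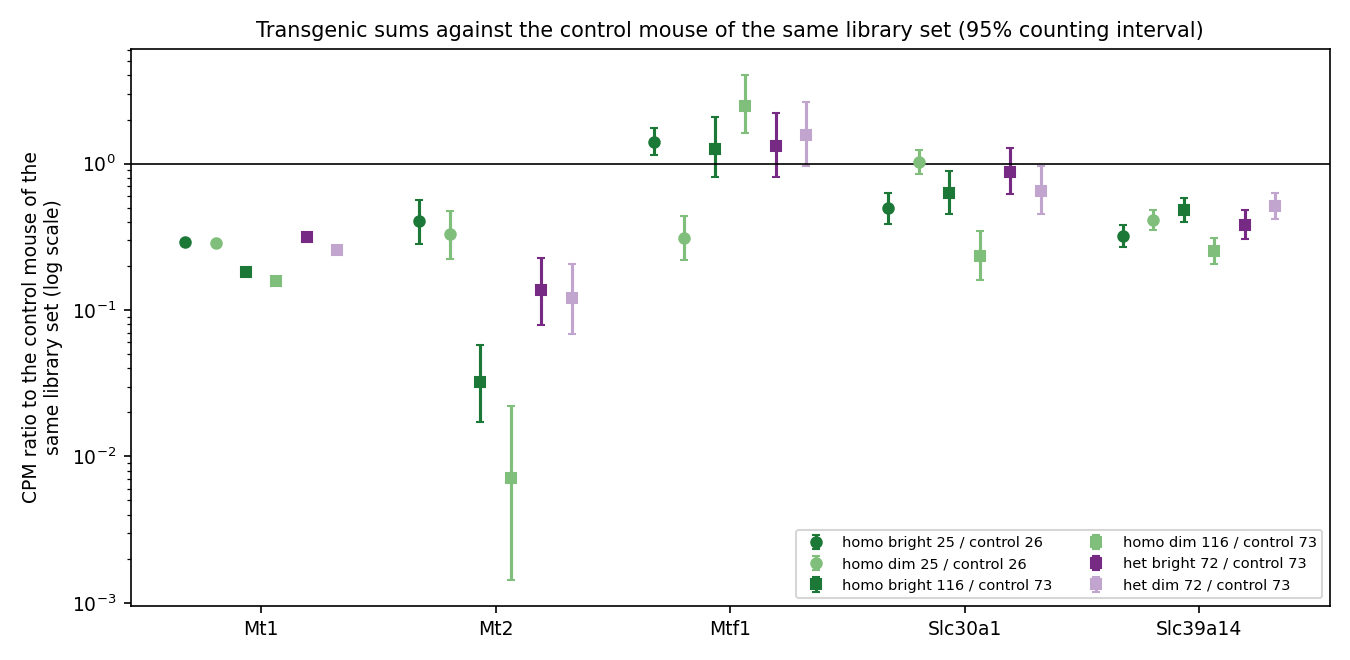
CPM of each member in the 6 transgenic sums as a ratio to the control mouse of the same library set (log axis), with 95% counting intervals and a line at 1. Mt1, Mt2 and Slc39a14 lie below 1 in 6 of 6 sums, Slc30a1 in 5 of 6, and Mtf1 lies on both sides.

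The wider zinc system was read next. Of 24 other metallothioneins and zinc transporters, 13 could be tested in homo_bright against control, and edgeR called 0 of them at the adjusted threshold and 0 at an unadjusted p under 0.05. Their median log2 fold change was 0.38, with 9 above and 4 below 0. In homo_dim against control 14 were tested, 0 were called in either way, and the median was 0.20, with 7 above and 7 below 0. DESeq2 also called 0 of this list in both comparisons. Without control mouse M26 edgeR called 1, Slc39a1, in homo_dim against control. Mt4, Slc30a3, Slc30a8, Slc30a10 and Slc39a8 had no count in any cell. Mt3, the metallothionein known from brain, lay between 0 and 10.3 CPM, with 5.16 and 0 CPM in control mice M26 and M73.

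Among exporters Slc30a9, which acts on mitochondrial zinc, had the highest level. It stood at 99.5 and 77.1 CPM in control, 91.8 and 103 CPM in homo_bright and 95.2 and 99.98 CPM in homo_dim, with 84.4 and 108 CPM in the het cells. The groups overlapped, and edgeR's log2 fold change was -0.18 ± 0.34 (adjusted p = 0.976) for homo_bright and -0.15 ± 0.35 (adjusted p = 0.999) for homo_dim against control. Slc30a5, which supplies zinc to the secretory pathway, stood at 6.64 and 11.2 CPM in control, at 15.6 and 25.1 CPM in homo_bright, at 9.90 and 19.8 CPM in homo_dim, and at 8.44 and 23.9 CPM in the het_bright and het_dim cells. Its edgeR log2 fold change was 0.84 ± 0.83 (adjusted p = 0.940) for homo_bright and 0.42 ± 0.92 (adjusted p = 0.999) for homo_dim against control, whose sums overlapped. Slc39a1, an importer of the plasma membrane, stood at 75.2 CPM in the first control mouse (M26) and 7.81 CPM in the second (M73). It stood at 105 and 54.2 CPM in homo_bright and 91.4 and 53.6 CPM in homo_dim, and at 46.9 and 28.4 CPM in the het_bright and het_dim cells, so that the transgenic sums lay on both sides of the first control mouse and above the second.

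Genes of the known inducers of metallothioneins were read beside Mt1. Of 8 glucocorticoid-responsive genes edgeR and DESeq2 called 0 in both comparisons, and 1 (Per1) and 0 had an unadjusted p under 0.05 in edgeR. Their median log2 fold changes were -0.85 (2 above, 6 below 0) for homo_bright and -0.56 (3 above, 5 below 0) for homo_dim against control. Of 8 genes of interleukin-6 signalling, 5 and 6 were tested and 0 called by edgeR or DESeq2, with medians of -1.20 and -0.72. At an unadjusted p under 0.05 edgeR took 1 gene in each, Stat3 in homo_bright and the receptor gene Il6ra in homo_dim. Stat3, the transcription factor of that pathway, stood at 85.6 and 135 CPM in control, 69.1 and 52.9 CPM in homo_bright, and 70.0 and 73.6 CPM in homo_dim (-1.20 ± 0.44, adjusted p = 0.695, and -0.93 ± 0.41, adjusted p = 0.851 in edgeR). Both Stat3 groups were below both control mice, and the het_dim cells, at 100 CPM, lay between them.

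Of 7 targets of the oxidative stress factor Nrf2, 5 and 6 were tested and edgeR called 0, with medians of -0.15 and -0.01. Hmox1, heme oxygenase, was the 1 gene with an unadjusted p under 0.05 in edgeR and the 1 call of DESeq2, both in homo_dim against control. Of 8 genes of copper handling, 8 and 7 were tested, with medians of 0.08 and 0.48, and 0 were called by edgeR or DESeq2 or had an unadjusted p under 0.05. Sod1, the copper- and zinc-bound superoxide dismutase, stood at 284 and 282 CPM in control and at 446 to 525 CPM in the homo sums, with 331 and 348 CPM in the het cells. Its edgeR log2 fold change was 0.38 ± 0.28 (adjusted p = 0.925) for homo_bright and 0.49 ± 0.31 (adjusted p = 0.975) for homo_dim against control. Of 8 genes of iron and manganese handling, which share transport through Slc39a14, 6 and 6 were tested, with medians of -0.32 and -0.31, and 0 were called by edgeR or DESeq2 or had an unadjusted p under 0.05.

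Immediate-early genes and heat shock genes, which respond to the stress of tissue dissociation, were read as a list of 15. Their summed level in the median cell was 188 and 160 CPM in control mice M26 and M73, 535 and 1080 CPM in homo_bright, 376 and 1253 CPM in homo_dim, and 443 and 356 CPM in the het_bright and het_dim cells. All transgenic sums were above both control mice, and mouse M116 had the highest values of this list and the lowest of Mt1. Between the control mice, between the classes of mouse M25 and between the het classes, the sum with more Mt1 also had more of this list. Between the classes of mouse M116 it had less. Of the 12 tested, edgeR called 0 in both comparisons and took 2 (Btg2 and Atf3) at an unadjusted p under 0.05. The median log2 fold changes of the 12 were 1.25 (10 above, 2 below 0) for homo_bright and 0.88 (8 above, 4 below 0) for homo_dim. Btg2, an antiproliferative early gene, stood at 71.2 and 35.9 CPM in control and at 95.4 to 424 CPM in the homo sums. DESeq2 called both genes in homo_bright and Atf3 in homo_dim against control. The part of handling before lysis in the level of Mt1 was not tested. Within single sums the rho between Mt1 and the summed list lay between -0.23 and 0.15 over 8 to 56 cells.

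Markers of other heart cells were read in the same sums. Fibroblast markers (6 genes) summed to 122 and 32.5 CPM in control, 2238 and 57.5 CPM in homo_bright, 52.3 and 209 CPM in homo_dim, and 468 and 22.9 CPM in the het cells. Macrophage markers (6 genes) lay between 0.264 and 11.96 CPM in the control and homo_bright sums and at 72.7 and 62.5 CPM in homo_dim, with 25.1 and 3.25 CPM in the het_bright and het_dim cells. In homo_dim Lyz2, a macrophage lysozyme, was detected in 1 of 18 cells of mouse M25 and 3 of 50 cells of mouse M116. Endothelial markers (6 genes) lay between 72.1 and 177 CPM, and mural markers (5 genes) between 338 and 1645 CPM. Most of the mural sum was Acta2, smooth muscle actin. Rgs5, a pericyte marker, stood at 53.6 and 70.8 CPM in control, 25.2 and 19.7 CPM in homo_bright, 49.7 and 46.3 CPM in homo_dim, and 90.2 and 93.4 CPM in the het cells. Rgs5 was below both control mice in all homo sums and above them in the het cells. It was detected in 3 of 24 and 3 of 9 control cells, so its control level rests on few cells. Its log2 fold change in edgeR was -1.80 ± 0.50 (adjusted p = 0.663, unadjusted p = 0.0104) for homo_bright against control. Of the 4 mural genes tested, 3 were below both control mice in homo_bright and 1 in homo_dim, against 8.24% and 8.09% of all genes tested. The part of these markers in the level of Mt1 was not tested. edgeR called 0 genes of these lists in the 3 comparisons. At an unadjusted p under 0.05 it took 1 fibroblast, 1 macrophage and 1 mural gene in homo_bright against control and 3 macrophage genes in homo_dim against control. In bright against dim it took 4 endothelial, 4 macrophage and 2 mural genes. DESeq2 called Col1a2 in homo_bright and the macrophage genes Lyz2 and Csf1r in homo_dim against control. In bright against dim it called 4 macrophage genes (Lyz2, Csf1r, C1qa and C1qb) and 1 mural gene (Pdgfrb). Per1, Il6ra, Hmox1, Atf3, Col1a2, Csf1r, C1qa, Pdgfrb, Tnni3, Tnnt2 and Ryr2 were named after their values were seen.

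The genes whose level was most like that of Mt1 across the 219 CMs with at least 1000 genes were ranked among 8795 genes detected in at least 20% of cells, by Pearson's r of log2(CPM + 1) after the mean of each sum was taken out. They were Mrps21 (r = 0.68), Fabp3-ps1 (0.66), Ndufc2 (0.62), Tns1 (0.58) and Ak1 (0.57). In the 214 cells with an Mt1 count the same 5 genes had r of 0.22, 0.28, 0.17, 0.18 and 0.19, so the higher values rested on the 5 cells without one. Those cells held 1117, 1268, 1319, 1669 and 5392 genes. Among the genes most like Mt2 were Rpl21-ps8 (0.29), Atp11a (0.27), Esf1 (0.25) and Nvl (0.24). Mt1 and Mt2 had r = 0.18 with each other, and the other pairs of members lay between -0.04 and 0.07. Cells of a sum share an animal but differ in depth, and those of mouse M116 lie on 2 plates, so these values are a description.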

How the data were processed

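Single CMs were profiled by SMART-seq2 with Nextera libraries on a HiSeq 4000. The deposited values are raw gene counts per cell, which the authors obtained with STAR GeneCounts against a mouse reference that also held the human BAG3 and eGFP transcripts. The submitters' processing notes name bcl2fastq and STAR. The genome build, annotation and strand setting are not given in the sources used here. The deposited table has 1 column per cell, and all 234 were assigned by title. Reads carry no molecular identifiers, so intervals and upper limits cover counting error only.

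Counts were summed per mouse and brightness class. edgeR 4.0.16 (filterByExpr, TMM, quasi-likelihood test, R 4.3.3) compared homo_bright with control, homo_dim with control and homo_bright with homo_dim, with 2 mice each and Benjamini-Hochberg adjustment over all genes at 0.05. The study itself compared cells with Seurat. The het mouse has no replicate and was not tested. Alternatives were DESeq2 1.42.0, library size scaling, no filter, cells with at least 1000 genes, a library-set or mouse block, all groups in 1 fit, equal weight per cell, and leaving out each mouse. Ratios within a library set, single plates, sums without the cell with the highest CPM, and cells with a count of the metallothionein were added after the data were seen. edgeR was tested on simulated data.

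The members and gene lists were chosen with earlier results of these data known. Genes named from a list were the members, the 3 exporters and 3 importers with the highest counts and the 2 genes with the highest counts of each other list, plus Mt3. STAR counts only reads that map to 1 place. The numbers of the bright and dim sums pair them, since they come from the same animals (correlation of deviations over 13439 genes, r = 0.075). Gene positions and promoters come from RefSeq GRCm38.p6 and gene models from GENCODE M21, whose match to the authors' annotation was checked by name only (99.3% of features). One of the genes ranked by likeness is not reported here.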

Additional observations from a re-analysis of the deposited data

How the results depend on the processing

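Mt1 kept its sign against control under 11 of 11 alternatives, with a log2 fold change of -3.02 to -1.84 for homo_bright and -3.20 to -1.81 for homo_dim, and an adjusted p of 3.16e-07 to 0.662 and 4.37e-06 to 0.9997. It passed the threshold in 4 of 11 in each comparison. Mt2, Slc30a1 and Slc39a14 kept their sign in 11 of 11 and passed in none. With a mouse left out they lay between -4.87 and -2.17, -1.25 and -1.03, and -2.03 and -1.29 for homo_bright, and between -6.93 and -2.44, -2.41 and -0.19, and -2.18 and -1.65 for homo_dim. Equal weight per cell gave them their weakest values, -1.77, -0.25 and -0.77 for homo_bright and -1.85, -0.08 and -0.74 for homo_dim. The count of members called against control went from 0 to 1 with DESeq2, without a filter and with the library set as a block, and was 0 to 1 when a mouse was left out (1 without homo mouse M25).

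Over all genes homo_bright against control gave 2 calls, and 106 with DESeq2, 163 without a filter, 10 with the library-set block, 5 with all groups in 1 fit, 4 with equal weight per cell and 0 to 41 with a mouse left out. For homo_dim against control these were 0, then 55, 58, 12, 1, 1 and 3 to 827, the last without control mouse M26, which also moved the other zinc genes from 0 to 1 call (Slc39a1). For bright against dim they were 0, then 89 with DESeq2, 217 without a filter, 2 with equal weight and 0 to 74 with a mouse left out. The cause was not tested.

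Signs turned for Mtf1 in homo_bright (-0.34 to 0.51 with a mouse left out) and homo_dim (0.21 by library size, 0.031 with equal weight, -1.64 to 0.68 with a mouse left out). In bright against dim they turned for Mt1 (-0.55 with equal weight, -0.71 to 0.92 with a mouse left out), Slc39a14 (-0.027, -0.11 to 0.59), Mt2 (-1.55 to 4.05), Mtf1 (-0.50 to 1.78) and Slc30a1 (-0.97 to 1.30). The difference of the Mt1 to Mt2 ratio turned when taken as a median over cells, at -40.04 for homo_bright and -18.0 for homo_dim against control. With the mouse as replicate block, bright against dim kept 0 calls and only Slc30a1 turned, to 0.15. The comparisons rest on 2 mice per group, 9 cells in control mouse M73 and few counts of Mt2, Mtf1 and Slc30a1. Estimates of several fold against control, as for Mt2 and for Mt1 with its many counts, did not pass in the main edgeR test. The part of mouse number and counts in this was not tested.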
